A study of Mus musculus with 2 samples.

Results

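Glycoprotein hormones are secreted dimers of an alpha and a beta subunit. In the pituitary the common alpha subunit, encoded by *Cga*, pairs with the beta subunit of luteinising hormone (*Lhb*) or follicle-stimulating hormone (*Fshb*) in gonadotrophs, and with that of thyroid-stimulating hormone (*Tshb*) in thyrotrophs, and it is made early in the development of both. The remaining pair, alpha subunit *Gpha2* and beta subunit *Gphb5*, makes up thyrostimulin, a hormone that can activate the thyroid-stimulating hormone receptor. These 6 genes, of 31055 in the count tables, are described here. They were taken by symbol, and the set was put together because earlier values of the same libraries had shown *Gpha2* in stem cells (SCs), so the levels below are a description without tests. The values that chose the members were thus the levels of *Gpha2* and *Cga* across cell classes of these same cells; the other subunits were chosen by name.

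The data are 2 droplet libraries of pituitary cells at postnatal day 3 (P3), 1 male and 1 female, from mice with genotype Sox9iresGFP/+. Per the study's methods each library held the GFP-positive cells sorted from 3 pooled pituitaries, and GFP outlasts SOX9, so the sort takes SCs and their immediate progeny. The animals of a pool cannot be told apart, and with 1 library per sex there is no replicate. After filtering, 10410 male and 5711 female cells remained, with 105883748 and 62830305 unique molecular identifiers (UMIs, each standing for 1 captured transcript) and medians of 8902.5 and 9789 UMIs per cell; 19 cell barcodes occurred in both libraries.

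Cells were placed in gates on the raw UMIs of genes that are not members, and a gate is a range of marker counts, not a cell type. Stem-gate cells had 5 or more UMIs of *Sox2*, *Sox9*, *Ednrb* and *Aldh1a2* together and at most 1 of the differentiation markers *Lef1*, *Shh*, *Smoc2*, *Pou3f4* and *Dll1*, of which differentiating-gate cells had 3 or more. Gonadotroph-gate cells had 2 or more UMIs of *Nr5a1*, *Gnrhr*, *Foxl2*, *Nhlh2* and *Tgfbr3l*, and *Pou1f1*-gate cells had 2 or more of *Pou1f1*, the factor of the somatotroph, lactotroph and thyrotroph lineage. Melanotroph-gate cells had *Pax7* and 3 or more UMIs over *Pax7*, *Oacyl*, *Tbx19* and *Pcsk2*. Mesenchymal-gate cells, with 10 or more UMIs of *Dcn*, *Col1a1*, *Col1a2* and *Col3a1* and none of a short list of pituitary and epithelial genes that included *Pitx1*, *Sox2*, *Epcam* and *Pou1f1*, should lack all 6 subunits and served as the measure of free RNA.

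The labels call the cells stem cells, but 2964 of 10410 male cells (28.5%) and 3185 of 5711 female cells (55.8%) passed the stem gate. There were 1091 male and 842 female differentiating-gate cells, 1219 and 335 gonadotroph-gate, 695 and 259 *Pou1f1*-gate, 193 and 128 melanotroph-gate and 481 and 282 mesenchymal-gate cells. A further 125 male and 29 female cells passed gates of more than 1 lineage, and 3642 and 651 passed none, with median UMIs of 1365 and 7528. Many cells lay near a cut: 283 of the male and 140 of the female gonadotroph-gate cells had exactly 2 marker UMIs, and 790 and 325 further cells had 1. The leukocyte gene *Ptprc* had 0 UMIs in each of the 6 gates in both libraries, while the mesenchymal gate also held the endothelial gene *Emcn*, at 209 CPM (UMIs of the gene per 1000000 UMIs of the gate) in males and 217 CPM in females. Each is 1 of several markers of its cell type, so neither value shows that such cells were absent or present.

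The sequences upstream of the subunit genes are given first, since the members fall into those high in gonadotroph-gate cells (*Cga*, *Lhb*, *Fshb*) and *Gpha2*, which is high in stem-gate cells. The 250 bases before the RefSeq start of each gene were read from build GRCm38.p6 (the build named mm10 in the study) and are printed up to the GENCODE start where that lies further upstream: *Cga* from chr4:34893529-34893778 on the plus strand, *Gpha2* from chr19:6226151-6226379 on the plus strand and *Fshb* from chr2:107059657-107059901 on the minus strand. Of the *Lhb* window (chromosome 7, 45420696 to 45420945, plus strand) 126 bases lie inside the gene as GENCODE places it, so it is not printed; in the *Gpha2*, *Fshb* and *Tshb* windows 21, 5 and 4 bases do. Capitals mark the letters of the motifs searched.
Cga: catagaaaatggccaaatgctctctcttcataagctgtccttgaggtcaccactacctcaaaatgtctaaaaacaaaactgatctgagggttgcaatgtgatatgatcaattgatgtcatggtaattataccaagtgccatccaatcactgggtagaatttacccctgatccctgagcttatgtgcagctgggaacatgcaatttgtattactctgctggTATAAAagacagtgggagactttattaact
Gpha2: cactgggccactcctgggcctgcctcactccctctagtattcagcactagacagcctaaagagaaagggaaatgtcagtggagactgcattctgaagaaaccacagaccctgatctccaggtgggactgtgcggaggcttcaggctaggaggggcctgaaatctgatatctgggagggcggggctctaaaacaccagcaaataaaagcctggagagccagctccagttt
Fshb: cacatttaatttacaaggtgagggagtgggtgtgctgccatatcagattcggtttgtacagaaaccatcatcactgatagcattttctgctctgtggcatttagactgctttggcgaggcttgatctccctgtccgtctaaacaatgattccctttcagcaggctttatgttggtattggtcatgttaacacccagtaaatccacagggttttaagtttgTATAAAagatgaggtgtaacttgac
Motifs were searched on both strands in 32851 promoter windows of the same length. The core promoter motif TATAAA occurred in 12.4% of them. The site of NR5A1, the gonadotroph factor, was searched as AAGGTCA and occurred in 4.08%. That of the pituitary factor PITX1 was searched as TAATCC and occurred in 6.25%. Those of the zinc-finger factors GATA2 and EGR1 were searched as AGATAA, found in 9.99% of windows, and as CGCCCCC, found in 14.8%. TATAAA lay 30 bases before the RefSeq start of *Cga* and of *Fshb* and 31 before that of *Lhb*. The *Lhb* window also held TGACCTT, the NR5A1 motif read on the other strand, at 129 bases and CGCCCCC at 112 bases before the RefSeq start. By the GENCODE start of *Lhb*, at 45420820, TATAAA and CGCCCCC lie inside the gene and TGACCTT lies across the start, so these matches are upstream of the gene in 1 annotation alone. None of the 5 motifs was in the *Gpha2* window; its letters there include no TATAAA, which says nothing about the factors that act on the gene. A match is a description of letters and not of a binding site. *Tshb* (not printed) held TATAAA at 27 and at 248 bases before its start, the latter overlapping its other-strand match, and AGATAA at 58, and *Gphb5* held GGATTA, the PITX1 motif on the other strand, at 214.

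*Gpha2* was highest in the stem gate of both libraries. Its level was 200 CPM for males (exact Poisson 95% interval 195 to 204, which like all intervals here covers counting error only) and 87.6 CPM for females (84.4 to 90.8). *Gpha2* lies on chromosome 19 (mm10, 6226380 to 6227768, plus strand), and it was found in 1441 of 2964 male and 865 of 3185 female stem-gate cells. The UMIs were spread over many cells, with at most 70 in 1 cell and 6.30% of the male and 9.60% of the female total in the 10 cells with most. In mesenchymal-gate cells *Gpha2* was close to absent, with 5 UMIs in males (1.19 CPM) and 0 in females, which allows up to 1.26 CPM. The stem-gate level was therefore 169-fold (70.6 to 531) the mesenchymal-gate level in males and at least 69.2-fold higher in females.

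Across the remaining gates the order of *Gpha2* levels in males was *Pou1f1* (56.1 CPM, 51.7 to 60.8), melanotroph (49.3, 43.1 to 56.2), differentiating (31.4, 28.7 to 34.3) and gonadotroph (13.7, 12.1 to 15.5). Of these neighbours, the *Pou1f1* and melanotroph gates had overlapping intervals. In females the melanotroph gate came next to the stem gate, at 76.0 CPM (64.9 to 88.6) with an interval that overlapped the stem-gate one. It was followed by the differentiating (18.1, 15.7 to 20.8) and *Pou1f1* gates (14.3, 10.6 to 18.8), which overlapped, and the gonadotroph gate (5.62, 3.73 to 8.12). Stem-gate *Gpha2* exceeded the gonadotroph-gate level 14.5-fold in males (12.6 to 16.9) and 15.6-fold in females (10.4 to 24.3).

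In males, most *Gpha2* UMIs in the gonadotroph, *Pou1f1*, differentiating and melanotroph gates came from few cells that also carried stem markers. In the male gonadotroph gate, 20 cells with 5 or more *Gpha2* UMIs held 65.3% of the gate's *Gpha2*. All 20 contained *Sox2*, with a median of 26.5 stem-marker UMIs against 1 in the 1145 cells without *Gpha2*, and their median total of 29642.5 UMIs compared with 14356. In the male *Pou1f1* gate 35 such cells held 76.6%, and in the differentiating gate 30 held 74.4%. Again all had *Sox2*, and the median totals were 29448 and 27728.5 UMIs. Of male cells without *Gpha2*, *Sox2* was found in 53.6% in the gonadotroph, 36.9% in the *Pou1f1* and 90.7% in the differentiating gate. In females 13 differentiating-gate cells with 5 or more *Gpha2* UMIs held 64.5% of the gate's *Gpha2*, 4 *Pou1f1*-gate cells held 54.9% and 1 gonadotroph-gate cell held 35.7%. The female differentiating-gate cells of this kind did not stand apart in *Sox2*, found in 92.3% of them and in 94.2% of cells without *Gpha2*, had a median of 9 stem-marker UMIs against 6, and were shallower, with a median total of 10283 against 11937 UMIs. The 4 female *Pou1f1*-gate cells all had *Sox2*, with a median of 33 stem-marker UMIs against 1 and a median total of 31146.5 UMIs against 12137. Droplets with more than 1 cell were not removed. For 1 alternative, the cells with the highest scores of the doublet caller Scrublet were marked. Their share was set beforehand to 0.8% per 1000 cells of the library, so it is not a count of detected doublets. Marked cells made up 11.6% of male gonadotroph-gate and 2.497% of male stem-gate cells, and 5.07% and 4.24% in females. Without the marked cells the stem to gonadotroph ratio of *Gpha2* was 27.9 and 66.9, and without the 10 cells with most *Gpha2* UMIs in each gate it was 23.7 and 125. When cells were gated after thinning it was 47.9 and 48.3, and with a gonadotroph gate of *Nr5a1* and *Gnrhr* alone 8.57 and 81.2.

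The melanotroph gate showed the same unevenness. Of its 193 male cells 9 held 87.6% of the *Gpha2* UMIs, and of its 128 female cells 10 held 84.1%. Those cells all contained *Sox2*, which was also found in 60% of male and 80% of female melanotroph-gate cells without *Gpha2*. Their median of stem-marker UMIs was 13 against 1 in males and 5.5 against 3 in females. They had a median of 6 and 4 UMIs of *Pomc*, the precursor of melanotroph hormone, against 4362 and 1001 in melanotroph-gate cells without *Gpha2*. *Gpha2* in this gate thus lay mostly in cells that passed on *Pax7* and its companions but had little *Pomc*. Their median totals, 17814 and 10746.5 UMIs, were below those of the cells without *Gpha2*, at 21246 and 15216.

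*Cga* was highest in the gonadotroph gate of both libraries. It lies on chromosome 4 (mm10, 34893779 to 34907370, plus strand) and reached 8439 CPM in male gonadotroph-gate cells (8397 to 8480) and 3352 CPM in females (3302 to 3403), against 51.8 (49.6 to 54.2) and 12.5 (11.4 to 13.8) in stem-gate cells. The gonadotroph to stem ratio was 163 (155 to 171) in males and 267 (239 to 300) in females. Differentiating-gate cells lay between, at 231 and 120 CPM, 4.45-fold and 9.58-fold above stem-gate cells. Both ratios moved with the gates: with higher cuts the differentiating to stem ratio was 6.90 in males and 18.1 in females, and a gonadotroph gate of *Nr5a1* and *Gnrhr* alone gave a gonadotroph to stem ratio of 713 in females, while a mean of CPM over male cells gave 93.4. The *Pou1f1* gate was at 535 CPM in males and 3072 in females, but 1 female cell with 4926 UMIs held 44.9% of that sum and the level was 103 CPM without the 10 highest cells. In the male melanotroph gate 10 cells held 87.3% of the *Cga* UMIs behind 126 CPM, and the female level was 6.03 CPM.

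**Figure D1:**
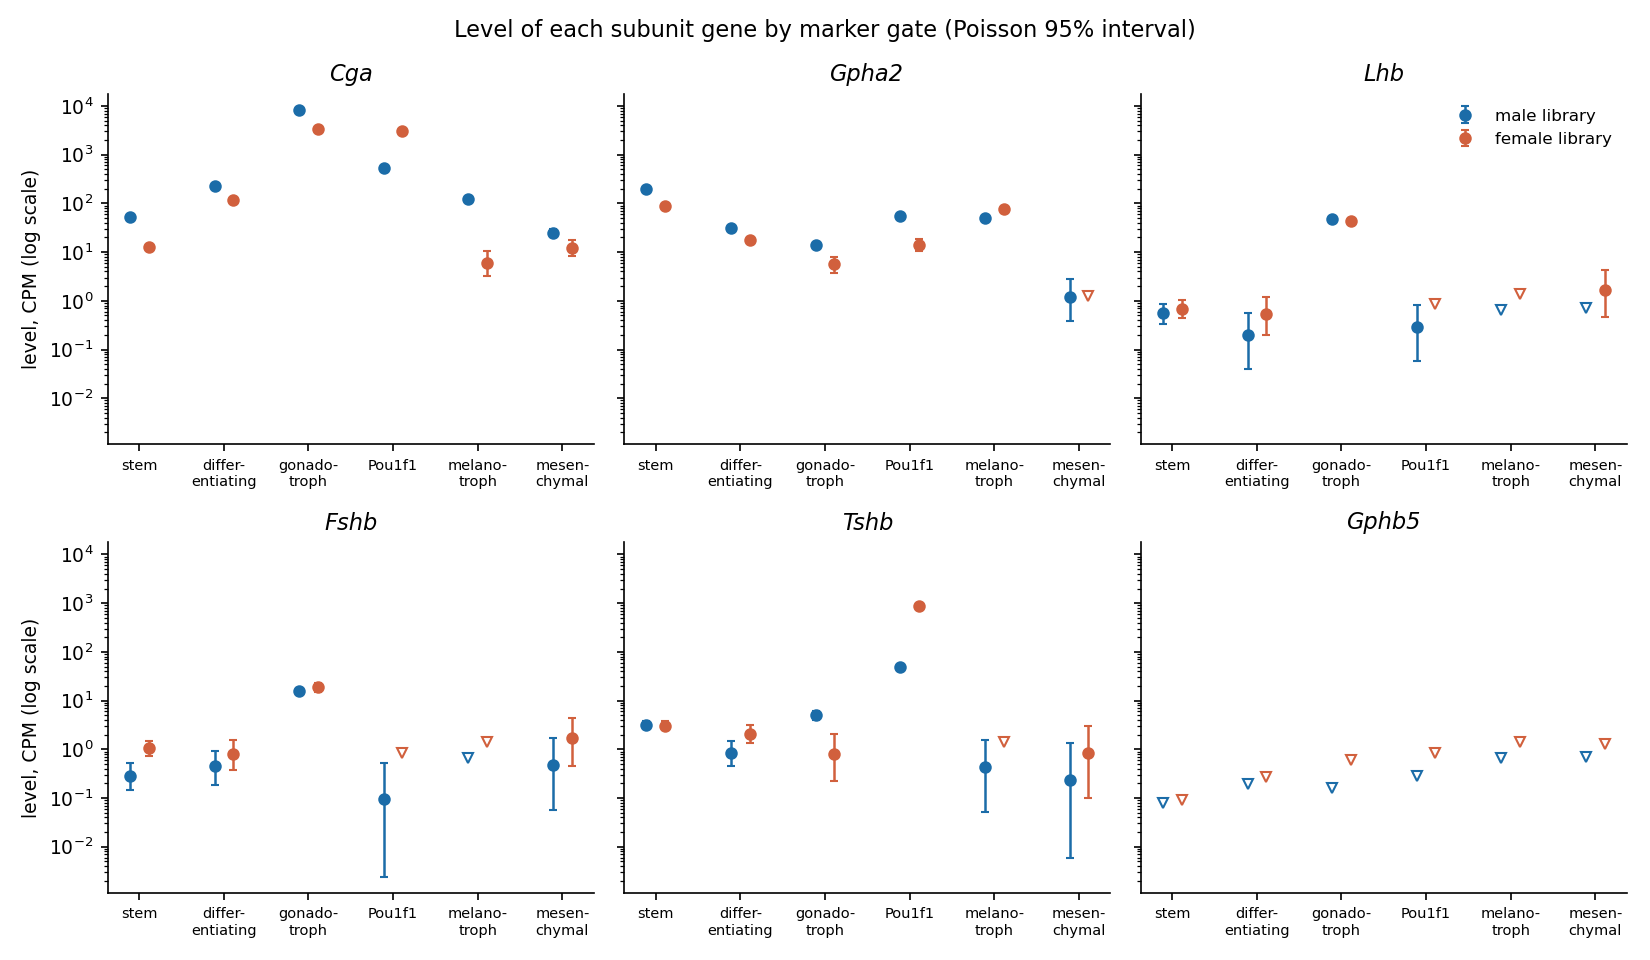
Levels of the subunits in each gate of the male and female P3 libraries, as CPM on a log axis with exact Poisson 95% intervals, and with open triangles at the limit of 3 UMIs where a gate held 0 UMIs. *Gpha2* is highest in the male stem gate at 200 CPM and *Cga* in the male gonadotroph gate at 8439 CPM.

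Among members that reached 10 CPM in either gate of both libraries, 4 of 6 could be compared between stem and gonadotroph gates: 1 was higher in the stem gate (*Gpha2*) and 3 were lower (*Cga*, *Lhb*, *Fshb*), where a call needs a 2-fold difference and intervals that do not overlap in both libraries. The female *Fshb* call rested on 1 cell, without which the gonadotroph-gate level was 0.201 CPM against 1.05 CPM in the stem gate. Female gonadotroph-gate *Lhb* was at 10.1 CPM without its highest cell. Of all 9065 genes compared between these gates, 12.1% were higher in the stem gate and 6.96% lower. Since *Gpha2* and *Cga* were picked for this pattern, nothing follows from those counts. Between differentiating and stem gates 2 of 6 members reached the level, *Cga* being higher (as were 3.94% of all genes) and *Gpha2* lower (10.2%). Between stem and mesenchymal gates the same 2 reached it, and *Gpha2* was higher in both libraries (12.7% of all genes) while *Cga* was higher in males, as were 14.3% of genes there, and was not called in females.

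The mesenchymal gate gave the level of subunit transcripts in cells that should lack them. *Cga* was at 25.1 CPM there in males and 12.2 CPM in females, which is 48.5% and 97.6% of the stem-gate level, whereas *Gpha2* was at 0.593% of its stem-gate level in males and, with 0 UMIs, at up to 1.44% in females. The ratio of stem to mesenchymal *Cga* was 2.06 (1.63 to 2.63) in males and 1.03 (0.647 to 1.69) in females. Female stem-gate *Cga* was thus not separated from the mesenchymal-gate level when all cells were counted. Without the 10 highest cells of each gate the ratio was 1.92 in males and 3.36 in females, the 10 cells being a larger share of 282 mesenchymal-gate than of 3185 stem-gate cells. Gating after thinning gave 4.65 in males.

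The mesenchymal gate takes no cell with a UMI of *Sox2* or the other genes listed above, so a mesenchymal cell that holds free *Sox2* RNA is left out of it by its rule. With *Sox2* allowed, a gate chosen after seeing the data, *Gpha2* was at 1.39 CPM in 495 male cells and had 0 UMIs in 284 female cells. With up to 2 UMIs of the excluded genes allowed it was at 2.23 CPM in 575 male and 0.388 CPM, from 1 UMI, in 306 female cells, and the male stem-gate level was 89.6-fold (49.0 to 184) that value. *Cga* in the last of these gates was at 32.8 CPM in males, which made its stem to mesenchymal ratio 1.58 (1.30 to 1.94), and at 11.3 CPM in females.

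Shares of cells with a UMI were compared at a common depth of 5000 UMIs drawn from each cell (thinning), for which 258 male and 87 female stem-gate cells and 61 and 29 mesenchymal-gate cells were too shallow. *Gpha2* was detected in 37.5% of male (35.7 to 39.4, exact Clopper-Pearson 95%) and 18.9% of female stem-gate cells (17.6 to 20.3), and in 48.6% and 27.2% before thinning. In mesenchymal-gate cells the thinned share was 0.476% in males and 0 of 253 in females, which allows up to 1.19%. Median depths before thinning were 10025.5 and 9130 UMIs in the stem gate and 7887 and 7561 in the mesenchymal gate. *Gpha2* detection in stem-gate cells was therefore above the share in mesenchymal-gate cells in both libraries, within the limit just given for that gate.

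*Cga* was detected in 11.4% of male stem-gate cells (10.2 to 12.7) and 7.86% of mesenchymal-gate cells (5.47 to 10.9), with overlapping intervals. In females the shares were 3.39% (2.78 to 4.09) and 3.95% (1.91 to 7.15), also with overlapping intervals. Without thinning *Cga* was found in 23.1% and 6.25% of stem-gate cells. The gonadotroph-gate shares, at 83.4% and 62.6%, and the differentiating-gate shares, at 24.4% and 16.9%, stood above the mesenchymal-gate share in both libraries.

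**Figure D2:**
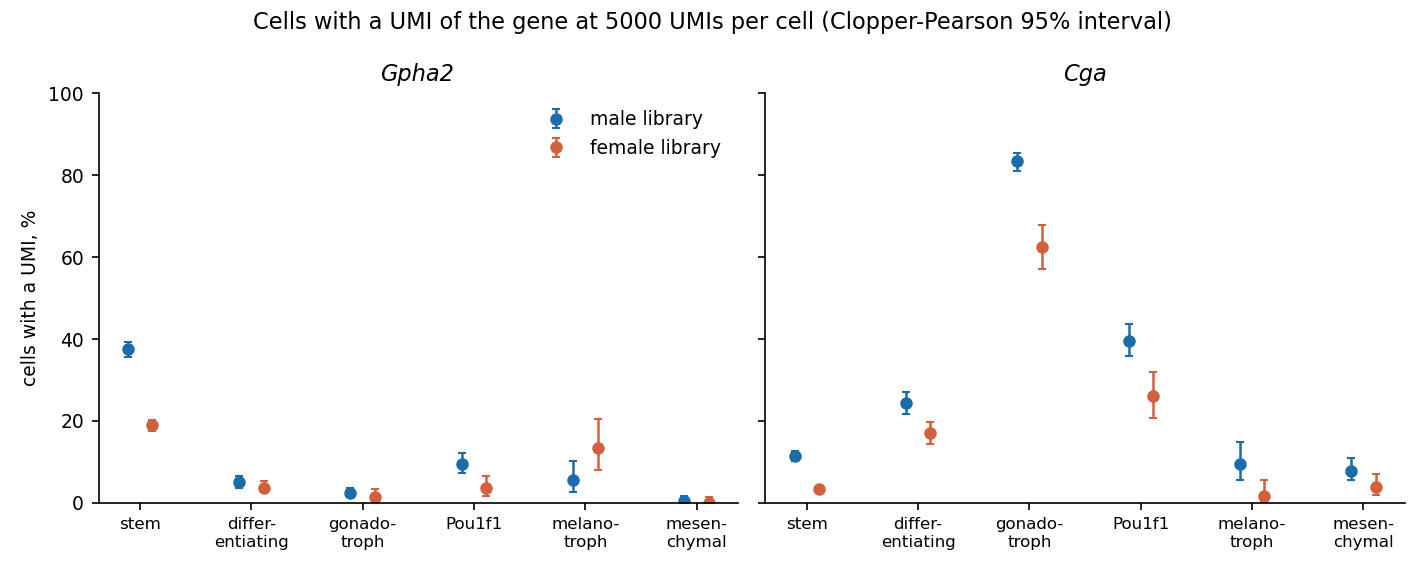
Percent of cells thinned to 5000 UMIs with at least 1 UMI of *Gpha2* or *Cga* in each gate of both libraries, with exact Clopper-Pearson 95% intervals. *Gpha2* is found in 37.5% of male stem-gate and 0.476% of male mesenchymal-gate cells, while *Cga* is found in 11.4% and 7.86%.

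*Pomc*, whose own gate had it in 97.8% of male and 90.6% of female thinned cells, was detected at a similar share in the other 5 gates. These shares ran from 50.2% in the differentiating to 56.0% in the mesenchymal gate in males, and from 15.8% in the mesenchymal to 19.8% in the gonadotroph gate in females. Its levels were less even, at 758 CPM in stem-gate and 210 CPM in mesenchymal-gate cells in males and 157 and 34.2 CPM in females. The detection shares of *Gpha2* and *Cga* given above differed more between gates. The mix of hormone transcripts also differed between gates: for each 100 *Cga* UMIs there were 385 male and 699 female *Gpha2* UMIs in the stem gate, 13.6 and 15.1 in the differentiating gate and 0.163 and 0.168 in the gonadotroph gate, but 4.72 and 0 in the mesenchymal gate. Barcodes with 500 to 1000 UMIs in all (1294 male and 104 female) held *Cga* at 1846 and 699 CPM and *Gpha2* at 68.1 and 14.3 CPM, the female *Gpha2* value resting on 1 UMI. These barcodes also held *Sox2* at 349 and 257 CPM, and whether they include shallow cells was not tested. For male *Gpha2* the 2 background sets were far apart, at 68.1 CPM here and 1.19 CPM in the mesenchymal gate. *Gpha2* UMIs outnumbered *Cga* UMIs in the stem gate of both libraries and in neither background set. They also did so in the female melanotroph gate, at 1262 for each 100 *Cga* UMIs, from 164 *Gpha2* and 13 *Cga* UMIs. In the male melanotroph gate there were 39.3, and in the *Pou1f1* gate 10.5 in males and 0.465 in females. Both genes were picked for their levels across gates, so nothing on the source of the transcripts follows, and it was not tested.

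Co-detection of the alpha subunits in stem-gate cells was counted in the thinned cells. In males 1015 cells had *Gpha2*, 309 had *Cga* and 122 had both, so *Cga* was found in 12.02% of *Gpha2*-positive and 11.06% of *Gpha2*-negative cells. In females 586 had *Gpha2*, 105 had *Cga* and 12 had both, or 2.05% and 3.70%. *Cga* detection therefore hardly varied with *Gpha2* within the male stem gate, and these shares were not corrected for the mesenchymal-gate share given above. In the differentiating gate 5 of 51 male and 1 of 31 female *Gpha2*-positive cells had *Cga*, against 25.2% and 17.5% of the cells without *Gpha2*.

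Within the stem gate, *Gpha2* varied with the markers that the gate itself is built on. Male cells without *Ednrb*, an endothelin receptor gene, had 248 CPM *Gpha2* against 152 CPM in cells with 1 or more *Ednrb* UMIs and 104 CPM in those with 3 or more. Female cells had 137, 56.3 and 24.1 CPM. The ratio between cells without and with *Ednrb* was 1.63 (1.53 to 1.74) in males and 2.43 (2.18 to 2.70) in females, so *Gpha2* was lower where *Ednrb* was detected in both libraries. With *Aldh1a2*, which makes retinoic acid, the order was the other way: 73.3, 134 and 220 CPM in male cells with 0, 1 to 4 and 5 or more UMIs, and 55.9, 53.9 and 116 CPM in female cells, where the first pair had overlapping intervals. Cells with 5 or more *Aldh1a2* UMIs were also deeper, with a median of 11746.5 UMIs against 7361.5 in those with 0 in males and 10303.5 against 8197.5 in females.

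Proliferation, called from UMIs of 2 or more of 8 cell cycle genes, made a smaller difference. *Gpha2* was at 220 CPM in male cells not called proliferating and 179 CPM in proliferating cells, and at 91.3 and 79.7 CPM in females. These are ratios of 1.23 (1.15 to 1.31) and 1.15 (1.03 to 1.28). The genes are detected more often in deep cells, and median depth was 8950.5 against 15710 UMIs in males and 8596 against 12631 in females.

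**Figure D3:**
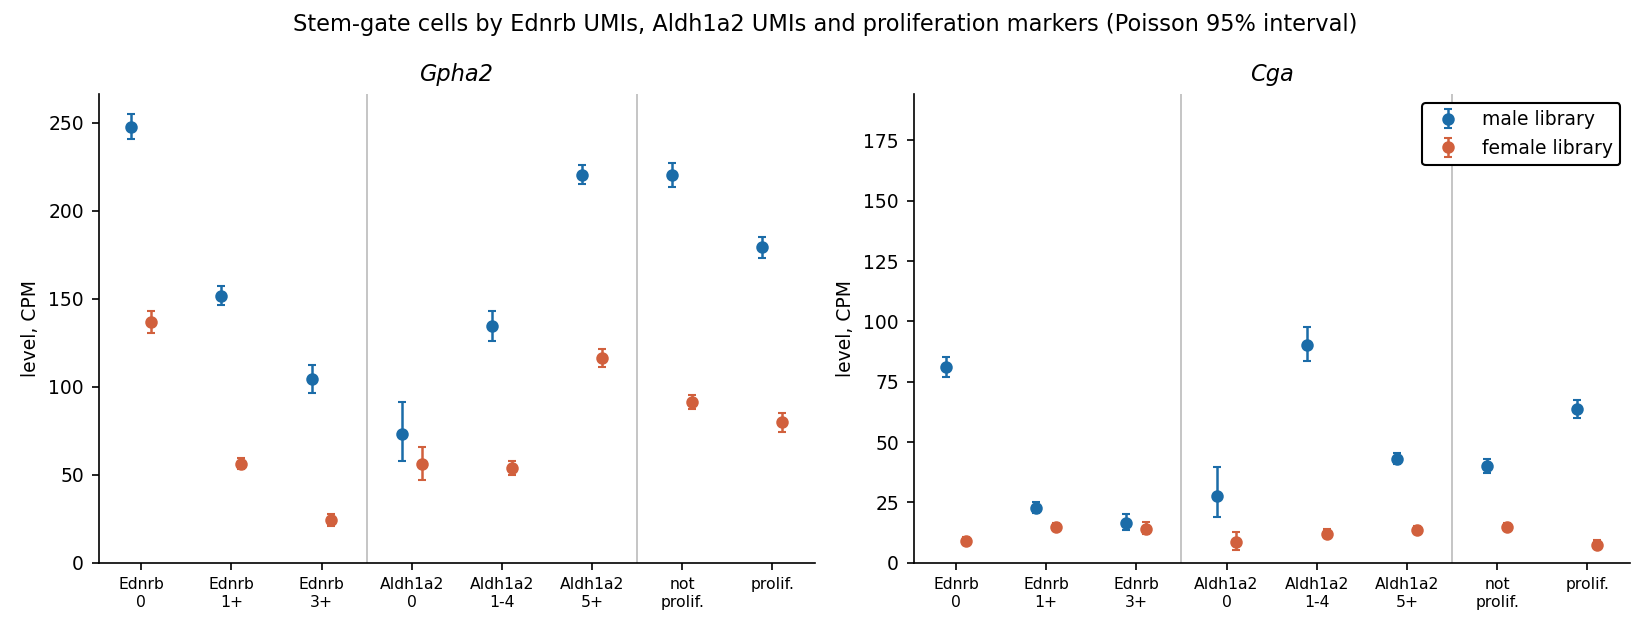
*Gpha2* and *Cga* levels (CPM) in stem-gate cells split by *Ednrb* UMIs, by *Aldh1a2* UMIs and by proliferation (prolif.), with exact Poisson 95% intervals, male and female P3 libraries. *Gpha2* is at 248 CPM in male and 137 CPM in female cells without *Ednrb*, and lower with *Ednrb* in both.

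*Cga* in the same strata did not keep 1 direction. Male cells without *Ednrb* had 81.0 CPM and those with *Ednrb* 22.8 CPM, but female cells had 8.91 and 14.8 CPM. In males 1 cell with 390 *Cga* UMIs carried 25.3% of the first value, which was 60.6 CPM without it. The female values straddled the mesenchymal-gate level of 12.2 CPM.

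From the stem gate into the differentiating gate *Gpha2* and *Cga* moved in opposite directions. Thinned cells of both gates were placed in bins of 0, 1, 2, 3 to 4 and 5 or more differentiation-marker UMIs left after thinning. The bins had 2598, 349, 192, 323 and 269 male and 2914, 358, 167, 277 and 220 female cells. Stem-gate cells had at most 1 such UMI before thinning, so bins of 2 or more hold differentiating-gate cells alone. The lower bins hold mostly cells picked for stem markers, and cells with 2 such UMIs before thinning are in neither gate. The path over the bins is thus shaped in part by the gates. *Gpha2* went from 198 through 105, 29.2 and 8.05 to 5.20 CPM in males, and from 84.8 through 50.3, 31.1 and 20.2 to 1.82 CPM in females. The share of cells with *Gpha2* fell from 37.3% to 1.86% and from 19.0% to 0.909%. *Gpha2* was lower in each further bin in both libraries, although the levels in the last pair of male bins and in the female bins of 1, 2 and 3 to 4 UMIs had overlapping intervals with their neighbours.

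*Cga* was at 44.0, 182, 126, 277 and 319 CPM in the same male bins and at 11.8, 68.7, 55.1, 99.6 and 183 CPM in the female bins. The highest bin was above the lowest in both libraries, but the path was not even: *Cga* was lower at 2 than at 1 UMI, beyond counting error in males alone. The share of cells with *Cga* went from 11.4% to 35.3% in males and from 3.60% to 25% in females. For comparison, *Sox2*, a stem factor that differentiating cells still contain, went from 626 to 309 CPM in males and from 765 to 407 CPM in females. *Sox2* is a gene of the stem gate, so its change is set in part by the gates. *Gpha2* was thus nearly lost in bins in which *Sox2* transcripts were still found in 69.9% and 79.5% of cells.

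**Figure D4:**
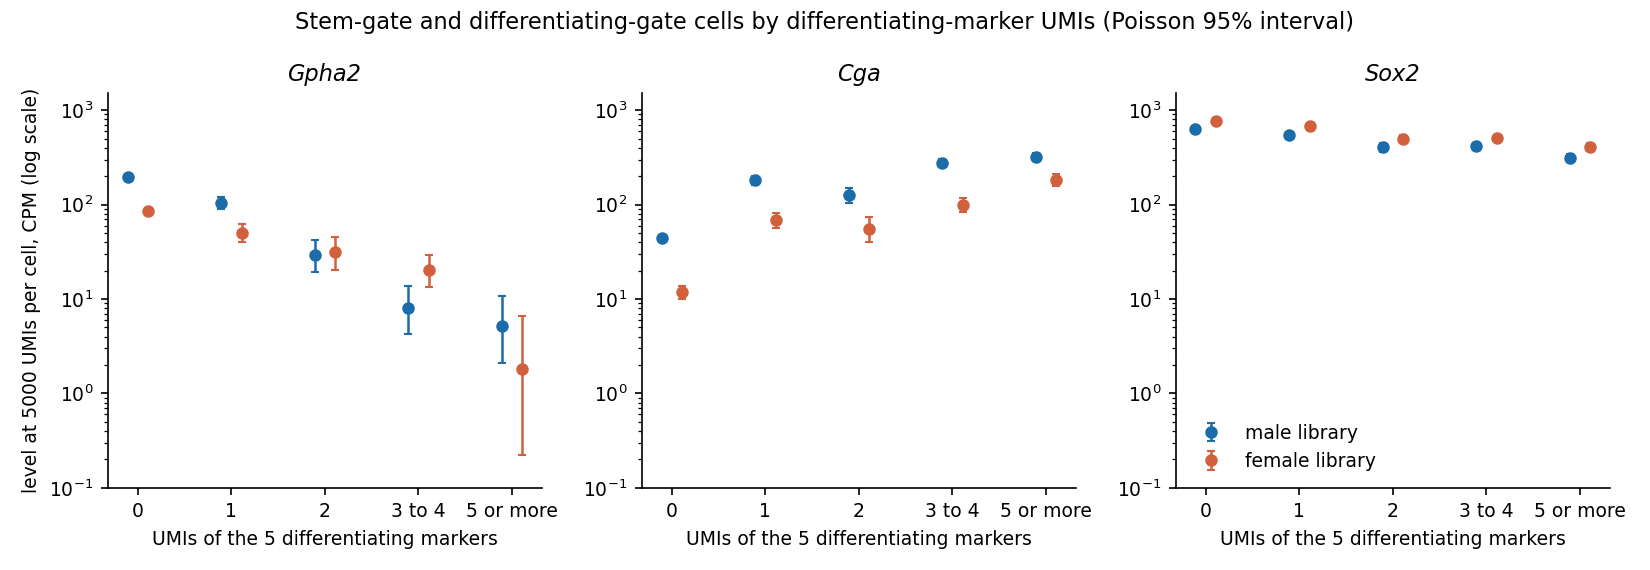
*Gpha2*, *Cga* and *Sox2* levels (CPM, log axis) in thinned cells of the stem and differentiating gates of both libraries by the number of UMIs of *Lef1*, *Shh*, *Smoc2*, *Pou3f4* and *Dll1*, with exact Poisson 95% intervals. *Gpha2* goes from 198 to 5.20 CPM in males and from 84.8 to 1.82 CPM in females. *Cga* goes from 44.0 to 319 CPM and from 11.8 to 183 CPM. Bins of 2 or more UMIs hold differentiating-gate cells alone.

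Within the gonadotroph gate the beta subunits were confined to few cells, most of which also had *Gnrhr*, the receptor for gonadotrophin-releasing hormone. *Lhb*, on chromosome 7 (45420820 to 45421897, plus strand), was found in 78 of 1219 male and 5 of 335 female cells, and the gate levels were 48.9 and 43.5 CPM. *Fshb*, on chromosome 2 (107056140 to 107059656, minus strand), was found in 10 and 2 cells, with gate levels of 16.1 and 18.7 CPM. The female values stand for single cells, since 1 cell held 77.0% of the *Lhb* and 1 held 98.9% of the *Fshb* UMIs. Stem-gate *Lhb* was at 0.550 and 0.693 CPM and *Fshb* at 0.288 and 1.05 CPM, with 9 *Fshb* UMIs in 1 female cell. The mesenchymal-gate levels were 0 and 1.69 CPM for *Lhb* and 0.474 and 1.69 CPM for *Fshb*, each from 4 UMIs or fewer. The intervals of the stem and mesenchymal gates overlapped, and the source of these transcripts was not tested. Of the *Lhb*-positive cells 72 of 78 male and 3 of 5 female ones had *Gnrhr*.

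Every *Lhb*-positive and every *Fshb*-positive gonadotroph-gate cell also had *Cga*. The median was 390 *Cga* UMIs in male and 161 in female *Lhb*-positive cells, against 58 and 4 in the 1138 and 329 gonadotroph-gate cells with neither beta subunit. *Lhb* and *Fshb* were found together in 7 male cells and 1 female cell. *Fshb* without *Lhb* was found in 3 male cells and 1 female cell, whose median *Cga* counts were 6 and 1 UMIs. Most cells of the gate therefore had the alpha subunit with no beta subunit detected at this depth: 1020 male and 227 female cells had *Cga* alone of the 3 genes.

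By *Gnrhr* UMIs of 0, 1, 2 to 4 and 5 or more, the gate split into 867, 88, 107 and 157 male and 313, 8, 8 and 6 female cells. *Cga* was at 4750, 12700, 13798 and 20694 CPM in males and 1988, 8807, 18642 and 41084 CPM in females, so it was higher in each further stratum. *Gnrhr* is 1 of the 5 gate genes, so cells with 0 passed on the others. *Lhb* was at 1.50, 2.39, 14.4 and 308 CPM and *Fshb* at 0.0750, 0.797, 0.624 and 106 CPM in the male strata. In males the beta subunits thus had nearly all their UMIs in the highest stratum, while *Cga* was already abundant where *Gnrhr* was not detected. In females the highest stratum of 6 cells had 1868 CPM *Lhb* and 971 CPM *Fshb*, with 94.4% and all of those UMIs in 1 cell. The female stratum of 2 to 4 had *Lhb* at 279 CPM, with all 37 UMIs in 1 cell.

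**Figure D5:**
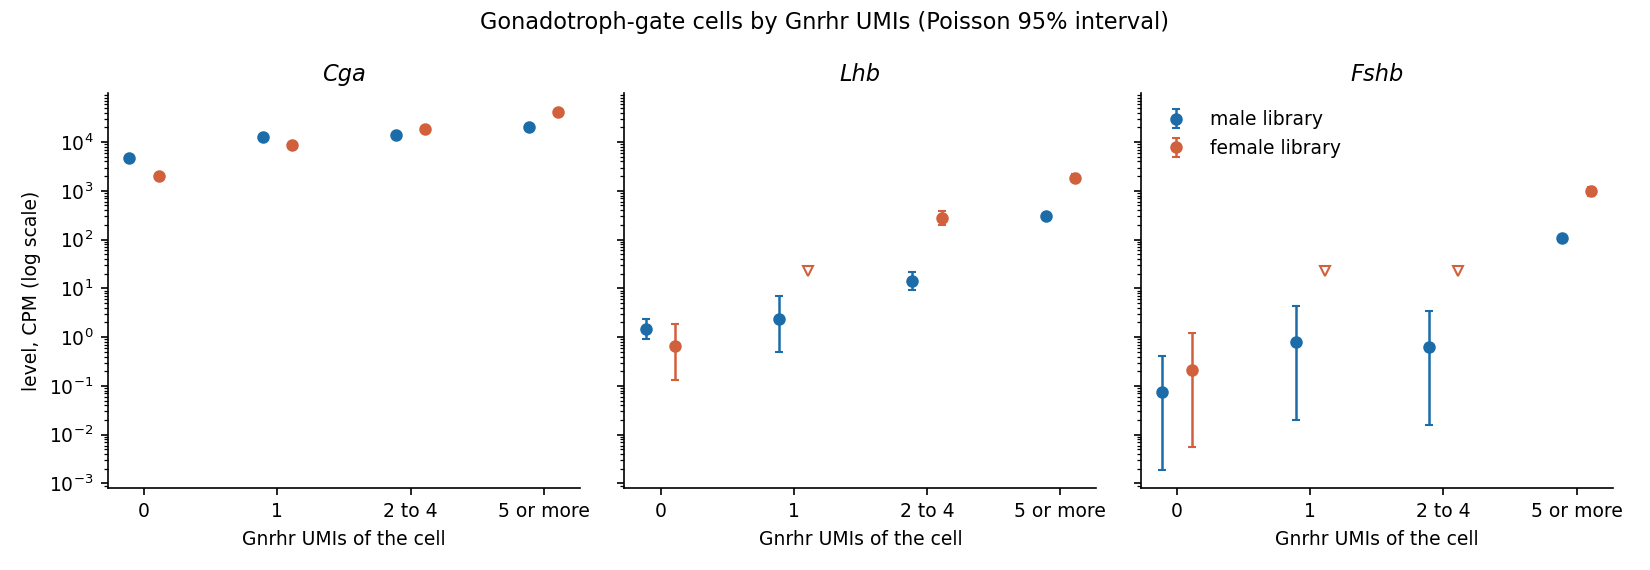
*Cga*, *Lhb* and *Fshb* levels (CPM, log axis) in gonadotroph-gate cells by *Gnrhr* UMIs in the male and female P3 libraries, with exact Poisson 95% intervals, and with open triangles at the limit of 3 UMIs where a stratum held 0 UMIs. Male *Cga* goes from 4750 to 20694 CPM and male *Lhb* from 1.50 to 308 CPM, and the female strata above 0 hold 8, 8 and 6 cells.

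*Tshb*, on chromosome 3 (102775465 to 102782718, minus strand), was rare and concentrated. In the *Pou1f1* gate it was at 49.5 CPM for males and 879 CPM for females, and at 412 and 1541 CPM in cells that passed gates of more than 1 lineage, of which 113 of 125 male and 25 of 29 female cells had passed the gonadotroph and *Pou1f1* gates. The study describes FOXL2, whose gene is in the gonadotroph gate, as marking commitment to thyrotrophs as well as gonadotrophs. Passing both gates therefore need not mean more than 1 lineage. Of the cells in more than 1 gate, 7 male and 3 female ones had 5 or more *Tshb* UMIs. Among these *Foxl2* was found in 6 and 3, *Dio2* in 6 and 3 and *Gnrhr* in 0. A single cell accounted for 57.1% of *Pou1f1*-gate *Tshb* in males and 44.8% in females. In all, 23 male and 14 female cells had 5 or more *Tshb* UMIs and held 84.4% and 96.0% of their library's *Tshb*. Of these, 12 male and 12 female cells had *Pou1f1*, 9 and 10 had *Dio2*, which activates thyroid hormone, and 5 and 7 had *Trhr*, the receptor for thyrotrophin-releasing hormone. *Cga* was found in 22 and 12 of them, with medians of 328 and 291.5 UMIs, and 1 female cell with 1405 *Tshb* UMIs held 34.5% of the library's *Tshb*.

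*Tshb* was also found outside these gates. Of the 246 male and 135 female cells with a *Tshb* UMI, 57 and 51 were stem-gate cells and 42 and 4 gonadotroph-gate cells. In males 7 stem-gate cells had 5 or more *Tshb* UMIs, with a median of 10 *Sox2* and 7 *Cga* UMIs and none with *Pou1f1*, *Dio2* or *Trhr*. In females 2 stem-gate cells and 1 differentiating-gate cell did, and 1 of the stem-gate cells had 38. Male gonadotroph-gate cells with 5 or more *Tshb* UMIs numbered 4, all with *Gnrhr* and a median of 648.5 *Cga* UMIs. Stem-gate *Tshb* was at 3.20 and 3.07 CPM, against 0.237 and 0.843 CPM, from 1 and 2 UMIs, in the mesenchymal gate.

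*Gphb5*, the beta subunit that pairs with *Gpha2*, was not detected. It lies on chromosome 12 (75411722 to 75416781, minus strand) and had 0 UMIs in both libraries, which over all kept cells allows up to 0.0283 CPM in males and 0.0477 CPM in females. No cell therefore had both thyrostimulin subunits at this depth. The other partner within reach of these data, the receptor gene *Tshr*, was at 0.131 CPM in male and 0.0904 CPM in female stem-gate cells, and at 1.42 and 0.201 CPM in gonadotroph-gate cells.

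Other genes of the glycoprotein hormone system were described from a list of 34, of which 6 are gate genes. In all, 19 reached 10 CPM in either the stem or gonadotroph gate of both libraries: 12 were higher in the gonadotroph gate, 2 in the stem gate and 5 in neither by the rule given above, by which 6.96% and 12.1% of the 9065 genes compared were higher in the gonadotroph and the stem gate. Without the gate genes it was 14 of 28, with 7, 2 and 5. The receptors *Lhcgr*, *Fshr* and *Tshr* did not reach the level, and *Lhcgr* was at 0.0524 and 0.0301 CPM and *Fshr* at 0 in stem-gate cells.

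Of 9 listed genes of hormone glycosylation and the secretory granule, 4 were higher in the gonadotroph gate, 1 (*B4galnt4*) was called in neither direction and 4 did not reach the level, the convertase gene *Pcsk1* among them. The granule gene *Chga* was at 469 CPM in male and 293 CPM in female gonadotroph-gate cells against 14.7 and 8.11 CPM in stem-gate cells, and *Scg2* was at 586 and 311 CPM against 15.1 and 9.52. *Chgb* and *Scg3* were the other 2 higher genes, but both were higher still in *Pou1f1*-gate cells. *Chgb* was at 940 and 840 CPM there against 203 and 95.5 CPM in gonadotroph-gate cells. *Scg3* was at 256 and 218 CPM against 127 and 108 CPM. *Chga* and *Scg2* were lower in the *Pou1f1* gate than in the gonadotroph gate. Of the transcription factors, *Isl1* was at 417 and 437 CPM against 45.4 and 54.8, and *Thrb*, a thyroid hormone receptor, at 13.5 and 14.0 CPM against 5.58 and 4.16. *Lhx3*, which is needed for the early pituitary, was called in neither direction at 119 and 114 CPM against 137 and 129. In *Pou1f1*-gate cells *Thrb* was at 94.7 CPM in both libraries and *Lhx3* at 256 and 281 CPM, above both other gates. *Isl1* was lower there, at 37.2 and 36.4 CPM.

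Of 9 listed genes of hypothalamic and activin input, 2 were higher in the gonadotroph gate (*Gnrhr*, a gate gene, and *Acvr2b*), 2 in the stem gate and 1 in neither. *Acvr2b*, an activin receptor, was at 39.0 and 51.8 CPM in gonadotroph-gate cells against 16.4 and 23.9 in stem-gate cells. *Acvr2a*, a related activin receptor, was called in neither direction, at 15.7 and 17.5 CPM against 24.3 and 26.3. *Inhbb*, which encodes a subunit of activin B, was higher in the stem gate, at 18.7 and 17.9 CPM against 5.82 and 3.61 in the gonadotroph gate. *Bambi*, a decoy receptor of this ligand family, was also higher there, at 16.3 and 15.5 CPM against 3.83 and 3.81.

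The genes whose pattern over the 6 gates and 2 libraries was most like that of *Gpha2* were *4933407L21Rik*, *Gabrg3*, *Nkain3*, *Tox2* and *Clu*, by Pearson's r of log2(CPM + 1) over 12 points among 7832 genes, with r from 0.952 to 0.966. *Clu*, a secreted chaperone, was at 374 and 433 CPM in stem-gate cells and 40.1 and 35.3 CPM in gonadotroph-gate cells. In melanotroph-gate cells *Clu* was at 435 and 264 CPM, in males above the stem gate. For *Cga* they were *Neurod1*, *Rpp21*, *Med10*, *Pip5k1a* and *Scgn*, with r from 0.902 to 0.965. *Neurod1*, a basic helix-loop-helix factor, was at 716 and 626 CPM in gonadotroph-gate cells and 3.12 and 1.11 CPM in stem-gate cells. The size of a change does not enter r, and 3 of the 5 genes varied little beside *Cga*. Over the 12 points *Med10* ran from 68.3 to 119 CPM, *Pip5k1a* from 19.4 to 32.2 and *Rpp21* from 61.6 to 176. *Cga* ran from 6.03 to 8439 CPM. The points share libraries and gates, so r is a description of likeness.

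Stem-gate cells with 2 or more thinned *Gpha2* UMIs (570 male and 271 female) were also set against those with none (1691 and 2512). By the same rule of 2-fold and separate intervals, 0.436% of 8719 genes in males and 0.772% of 8811 in females were higher in the *Gpha2*-high cells, and 0.906% and 1.24% were lower. The 10 leading genes each way were listed in 1 library and read in the other. Of the 10 higher genes listed in males 8 had the same direction in females and 6 were called there, and of the 10 lower genes all 10 had it and 7 were called. From the female lists all 10 higher and all 10 lower genes kept their direction in males, and 6 and 7 were called. The share of all genes that kept a direction is not given, so the counts of kept directions have no base rate. First in the female higher list was the growth hormone gene *Gh*, at 680 CPM in *Gpha2*-high cells and 149 CPM in cells without. In males it was at 313 and 234 CPM and was not called.

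Genes in both lists of higher genes were *Col28a1*, *Il33* and *Nup62cl*, and in both lists of lower genes *Ctgf*, *Dcn*, *Ednrb* and *Mme*, which are named because they were seen in both. *Il33*, a cytokine of the interleukin-1 family, was at 53.7 CPM in male *Gpha2*-high cells and 11.9 CPM in cells without, and at 31.0 and 6.69 CPM in females. *Col28a1*, a collagen, was at 41.8 and 7.69 CPM in males and 59.8 and 13.3 CPM in females. *Ctgf*, a secreted matrix protein, was at 7.02 and 31.2 CPM in males and 8.86 and 44.3 CPM in females. *Ednrb* is a gene of the stem gate and *Dcn* of the mesenchymal gate. The 2 genes of the male list with the other direction in females were the granule genes *Scg2* and *Chgb*: *Scg2* was at 21.1 against 5.56 CPM in males and 4.43 against 11.3 CPM in females, and *Chgb* was 3.68-fold higher in male *Gpha2*-high cells and at 0.662 of the level of the other cells in females.

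Levels in the male and female library differed for both alpha subunits. *Gpha2* in stem-gate cells was 2.28-fold higher in males (2.15 to 2.42) and *Cga* 4.14-fold (3.59 to 4.77), so both members that reached the level were called, as were 0.356% of all genes, while 0.264% were higher in females. In the gonadotroph gate *Cga* was 2.52-fold and *Gpha2* 2.44-fold higher in males, 2 of the 4 members that reached the level and 1.98% of all genes (0.345% were higher in females), whereas *Lhb* (1.12, 0.920 to 1.37) and *Fshb* (0.862, 0.627 to 1.19) had intervals around 1. The female beta subunit levels rest on single cells, so these intervals do not bound the 2 ratios. Without the highest cell of each gate *Lhb* was at 41.8 CPM in males and 10.1 CPM in females, and *Fshb* at 9.40 and 0.201 CPM. In the differentiating gate *Cga* was 1.92-fold and *Gpha2* 1.73-fold higher in males, below the 2-fold needed for a call, which 0.587% of genes passed in this direction and 0.156% in the other. With 1 pooled library per sex, a difference between the sexes and a difference between the libraries cannot be told apart.

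The gates held different cells in the 2 libraries. *Ednrb* was found in 1272 of 2964 male and 1875 of 3185 female stem-gate cells, and *Gnrhr* in 352 of 1219 male and 22 of 335 female gonadotroph-gate cells. Within strata *Gpha2* was still higher in males, 1.81-fold in stem-gate cells without *Ednrb* and 2.70-fold in those with it. *Cga* in these strata was 9.09-fold higher in males without *Ednrb* but 1.53-fold (1.24 to 1.89), below the 2-fold rule, with it. For *Cga* in the gonadotroph gate the direction turned: it was higher in the male strata with 0 and 1 *Gnrhr* UMIs and higher in the female strata with 2 to 4 and 5 or more, which have 8 and 6 cells. Mesenchymal-gate *Cga* was 2.05-fold higher in males (1.17 to 3.71), and its part in the stem-gate difference was not tested. In the melanotroph gate *Gpha2* was lower in males, at 0.649 of the female level (0.487 to 0.867). In the *Pou1f1* gate *Cga* was 5.74-fold higher in females, where 1 cell held 44.9% of its UMIs.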

How the data were processed

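The authors sequenced 2 sorted P3 libraries by 10x Genomics 3′ single-cell chemistry and, per the labels and methods, aligned them with Cell Ranger 3.0.2 (STAR 2.5.1b) to the mm10 transcriptome with eGFP added; the labels also name R 3.6.0 and Seurat 3 and 4. They deposited raw UMI counts per gene and barcode, without cell types. The deposited barcodes (10569 male, 5796 female) still held cells outside the study's stated limits, so cells needed at least 50 genes and a mitochondrial share no more than 3 SD above the library mean (20.4% and 26.1%), which removed 159 and 85. Each sample was grouped by the sex in its title.

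A gate's level is the gene's summed UMIs divided by the gate's total and scaled to 1000000 (CPM), with exact Poisson 95% intervals; shares used cells thinned to 5000 UMIs (seed 1), with exact Clopper-Pearson 95% intervals. A count of 0 allows 3 counts. Bounds of a ratio combine both levels' bounds. Intervals cover counting error only, and no test was run, since each sex has 1 library. Genes were compared between gates where either reached 10 CPM, and called at 2-fold with separate intervals. The members, gates and gene lists were chosen with earlier results of these data known. The genes named were the members, the listed hormone system genes, the 5 genes most like *Gpha2* and *Cga*, and the leading 10 genes each way between *Gpha2*-high cells and the rest, ranked by fold after adding 5 CPM to both levels.

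Doublets were kept. The 867 male (8.33%) and 261 female (4.57%) cells with the highest Scrublet scores (scanpy 1.11.5) were marked and left out in 1 alternative. Their number was set beforehand, to 0.8% per 1000 cells of the library. The alternatives were higher gates, thinning before gating, leaving out marked cells, means of CPM per cell and a gonadotroph gate on *Nr5a1* and *Gnrhr*. Others were 1000 genes per cell and no mitochondrial filter. Chosen after seeing the data was leaving out the 10 highest cells of each gate. So was letting *Sox2*, or up to 2 UMIs of the excluded genes, into the mesenchymal gate. Gene positions are from GENCODE on mm10 and promoters from RefSeq on GRCm38.p6; all 6 members matched. Code ran in Python 3.11.15 with numpy 2.4.6, scipy 1.17.1, pandas 2.3.3 and matplotlib 3.10.9, and was tested on simulated counts. Of the genes whose UMIs kept a cell out of the mesenchymal gate, 1 is not reported here.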

Additional observations from a re-analysis of the deposited data

Results flagged for a closer look

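Of 60 contrasts of member levels between gates or strata that were looked at in both libraries, 4 had opposite directions in the male and female library with an interval that left out 1 in each; the differences between the libraries were not tested.

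*Cga* in stem-gate cells without *Ednrb* was 3.56-fold the level with *Ednrb* in males but 0.600 of it in females. In stem-gate cells not called proliferating *Cga* was at 0.627 of the level in proliferating cells in males and 1.97-fold in females. In males 1 proliferating cell without *Ednrb* had 390 *Cga* UMIs; without it the level was 60.6 CPM in cells lacking *Ednrb*, still above 22.8 CPM, and 43.4 CPM in proliferating cells against 40.0 CPM in the others. The female levels of 7.57 to 14.9 CPM in these strata lay near the mesenchymal-gate 12.2 CPM.

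*Cga* in the melanotroph gate was 2.42-fold the stem-gate level in males and 0.481 of it in females, and the male melanotroph level was 16.3 CPM without its 10 highest cells, below the 33.0 CPM of the stem gate without its own 10.

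*Tshb* in the stem gate was at 0.635 of the gonadotroph-gate level in males and 3.83-fold in females, where the gonadotroph gate had 4 *Tshb* UMIs in all and 1 stem-gate cell held 38 of 102.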

How the results depend on the processing

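In all, 14 values (5 ratios and 2 shares in each library) were recomputed under 10 alternatives, where these apply; 71 of 102 recomputed values stayed within the counting interval of the value reported, 31 lay outside it, and 0 of those whose interval left out 1 turned direction. The female stem to mesenchymal ratio of *Cga*, 1.03 with an interval around 1, fell below 1 with higher gates (0.966) and without Scrublet-marked cells (0.935). Requiring 1000 genes per cell or dropping the mitochondrial filter moved none. The stem to gonadotroph ratio of *Gpha2*, 14.5 in males and 15.6 in females, became 17.4 and 37.5 with higher gates, 47.9 and 48.3 when thinned before gating, 27.9 and 66.9 without Scrublet-marked cells, 8.57 and 81.2 with the gate on *Nr5a1* and *Gnrhr*, 23.7 and 125 without the 10 highest cells, and 21.8 in males as a mean of CPM per cell. The gonadotroph to stem ratio of *Cga*, 163 and 267, became 198 and 407, 171 and 435, and 192 and 314 under the first 3 of these, 713 in females with the gate on *Nr5a1* and *Gnrhr*, 241 in males without the 10 highest cells and 93.4 in males as a mean per cell. The differentiating to stem ratio of *Cga*, 4.45 and 9.58, became 6.90 and 18.1 with higher gates and 8.28 and 24.7 thinned before gating, and in males 5.03 without marked cells and 3.28 as a mean per cell. The stem to mesenchymal ratio of *Cga* became 4.65 in males when thinned before gating, 1.58 in males with up to 2 UMIs of the excluded genes allowed in the mesenchymal gate, and 3.36 in females without the 10 highest cells. That of *Gpha2* in females, at least 69.2, became at least 66.6 as a mean per cell and at least 60.3 without the 10 highest cells. The causes were not tested. No paired analysis was possible because each sex had 1 library, and for the same reason no library could be left out. Depth limits the female beta subunits, which rest on single cells, and any statement on cells without a UMI.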
